A study of Mus musculus with 160 samples.

Results

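The 10 genes described here encode Hem1 (Nckap1l) and the other subunits of the WAVE regulatory complex, and they were taken as a named list from the 39179 genes of the count files. All 10 had a row in every one of the 160 libraries and all 10 passed the filter on low counts in each of the 4 lines. The WAVE regulatory complex is a 5-subunit assembly that holds a WASF (WAVE) protein inactive until the small GTPase Rac binds it, after which the WASF protein switches on the Arp2/3 complex and branched actin grows under the cell membrane. Each place in the complex can be filled by one of several related proteins: a Nckap1 or Nckap1l scaffold, a Cyfip1 or Cyfip2 Rac sensor, a Wasf1, Wasf2 or Wasf3 activator, an Abi1, Abi2 or Abi3 adaptor, and the small Brk1 subunit. Nckap1l is the form of blood-derived cells, where the complex serves migration, phagocytosis and the immune synapse, and Nckap1 is the form of most other tissues. The question put to the data was whether the related scaffold Nckap1, or any other subunit, stood higher where Nckap1l was knocked out.

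The libraries were made from distal colon RNA of mice of 4 knockout lines. The HEM1 line, in which Nckap1l is targeted, had 16 homozygous knockout (HO) and 15 wild-type (WT) libraries on the C57BL6/J strain, with tissue taken on day 12. The DOCK2 line (18 HO, 24 WT) and the GPSM3 line (20 HO, 20 WT) had the same strain label, the Dok3 line (26 HO, 21 WT) was labelled 129, and tissue of these lines was taken on day 10. DSS, a polymer that injures the colonic lining, was given in the drinking water for 5 days and followed by water for 7 days in the HEM1 line and 5 days in the others. The labels give a DSS dose of 3% for the DOCK2 and GPSM3 lines and 3.5% for the Dok3 line. They do not state the dose of the HEM1 line, and the paper describes a somewhat lower dose for Nckap1l knockout mice than for the other lines. Which mice received DSS and which stayed untreated was not given in the sources used here, so HO was compared with WT over both together. The HEM1 line held 4 HO and 8 WT females, and its sample numbers form 3 runs, called A, B and C here, with 6, 5 and 5 HO libraries and 8, 4 and 3 WT libraries. The type of each knockout allele was not given in the sources used here. Each library carries its own number in the labels, which do not say whether a number stands for a separate mouse, so p-values measure the spread between libraries.

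Total counts lay between 4344988 and 19993833 per library, so that 3 counts equalled between 0.15 and 0.69 CPM (counts scaled to a common library size). In the HEM1 line the totals lay between 15129793 and 18498086. Markers of colon epithelium and smooth muscle were present in all libraries. All libraries of run A but WT replicate 8, WT replicate 15 of run C and HO replicate 8 of run B also carried skin keratinocyte RNA. Sex markers went against the labelled sex in no HEM1 library and in some Dok3 libraries.

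4 libraries labelled HO in the HEM1 line (replicates 7, 8, 9 and 10, all males of run B) stood apart from the other 12. The summed CPM of the 8 B and plasma cell markers was between 36.3 and 118 in these 4, between 1.36 and 6.96 in the other 12 HO libraries and between 3.95 and 1235 in the WT libraries. The B cell transcription factor Pax5 had no count in 8 of the other 12 HO libraries and lay between 2.85 and 8.06 CPM in the 4. The genotype label of these 4 libraries was kept, but whether it is right was not tested, and each HO value that includes them may hold RNA of WT mice. The main results on Nckap1l and Nckap1 are given with them, without run B and without these 4. Run B is defined by the labels, but it holds all 4 of these libraries, which were picked from measured values. Leaving out either therefore favours a difference from WT.

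Positions are on GRCm38. Nckap1l (ENSMUSG00000022488) lies on chromosome 15 at 103453794-103498810 on the plus strand and Nckap1 (ENSMUSG00000027002) on chromosome 2 at 80500512-80581380 on the minus strand. Their coding sequences in the transcripts with the longest coding sequence have the same length, 3402 bases. To show how far a single-end read of 100 bases can tell the 2 scaffolds apart, the most alike 100 coding bases of the pair, found without gaps, are printed 5′ to 3′ with the differing bases in capitals. The Nckap1l stretch runs from coding base 707 to 806 over exons 7 to 9 (chr15:103462789-103464527, plus strand), and the Nckap1 stretch from coding base 731 to 830 over exons 8 to 10 (chr2:80545125-80548858, minus strand).
Nckap1l: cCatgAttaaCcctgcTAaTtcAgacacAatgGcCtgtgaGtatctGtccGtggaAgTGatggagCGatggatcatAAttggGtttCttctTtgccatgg
Nckap1: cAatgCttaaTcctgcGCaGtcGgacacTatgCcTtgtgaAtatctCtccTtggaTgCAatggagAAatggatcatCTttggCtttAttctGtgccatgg
Even here 23 of 100 bases differed, and the longest identical run anywhere in the 2 transcripts was 17 bases. A read of 100 bases from one scaffold transcript therefore matched the other at 77 bases at most. The closest pair of the complex was Cyfip1 and Cyfip2, with 9 differing bases in the most alike window, followed by Abi1 and Abi2 with 15. Among the 3 Wasf genes the lowest number of differing bases was 19.

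The other members lie on chromosome 10 (Wasf1, 40883475-40938570, plus), chromosome 4 (Wasf2, 133130505-133199756, plus), chromosome 5 (Wasf3, 146384985-146473615, plus), chromosome 7 (Cyfip1, 55841745-55932602, plus), chromosome 11 (Cyfip2, 46193850-46312859, minus, and Abi3, 95830074-95842476, minus), chromosome 2 (Abi1, 22940073-23040241, minus) and chromosome 6 (Brk1, 113604772-113616951, plus). Exons of Cyfip1 overlap Nipa2 on the opposite strand, those of Abi1 overlap Pdss1, and those of Abi3 overlap Zfp652, Phospho1 and Gngt2. The library kit marks strand, but the strand setting of the counting was not given in the sources used here, so the values of Cyfip1, Abi1 and Abi3 may hold reads of these neighbours.

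In the colon as a whole, the widely expressed subunits made up nearly all of the complex's RNA. Per kilobase of exon, Nckap1 stood highest in the HEM1 WT libraries at 64.4 ± 5.99 CPM per kb (mean ± SD, n = 15), followed by Brk1 at 49.3 ± 2.73, Abi1 at 48.1 ± 4.84, Wasf2 at 39.9 ± 2.17 and Cyfip1 at 17.9 ± 1.69. Nckap1l followed at 7.22 ± 5.30 CPM per kb and Cyfip2 at 4.05 ± 2.57. Wasf1 at 1.19 ± 0.479, Wasf3 at 1.04 ± 0.194 and Abi3 at 0.743 ± 0.219 CPM per kb were lowest. The neighbours Brk1 and Abi1, Nckap1l and Cyfip2, and Wasf1 and Wasf3 differed by less than the larger of their SDs, and the other neighbours in this order by more. Nckap1l made up a median of 7.07% of the summed per-kb level of the 2 scaffolds in WT libraries (3.53% to 26.03%) and 3.70% in HO libraries (1.26% to 16.4%). Wasf2 made up 92.55% to 97.0% of the summed per-kb level of the 3 Wasf genes in WT libraries, and Abi3 between 0.812% and 2.10% of that of the 3 Abi genes.

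**Figure D1:**
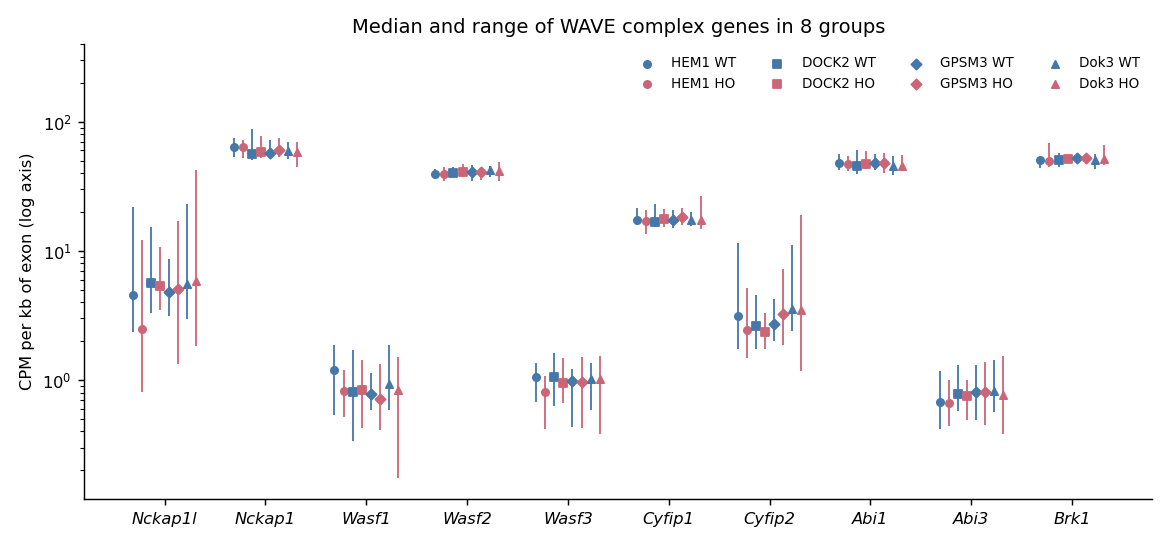
Level of the 10 genes in CPM per kilobase of exon (log axis) in the 8 groups of line and genotype. Symbols are medians, lines run from the lowest to the highest library, blue is WT and red is HO. The Nckap1l median of 2.50 CPM per kb in HEM1 HO is the lowest of its 8 groups, while the Nckap1 medians of the 8 groups lie close together.

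Nckap1l, the targeted gene, was lower in HO than in WT libraries of the HEM1 line, but its RNA was present in every library. In the 15 WT libraries it lay between 14.04 and 129 CPM with a median of 27.2. In the 16 HO libraries it lay between 4.79 and 71.4 CPM with a median of 14.8, and the groups overlapped. In run A the WT libraries had a lowest, median and highest value of 14.04, 24.3 and 85.1 CPM and the HO libraries of 6.56, 16.7 and 38.8 CPM. In run B the 4 WT libraries had 25.5, 39.1, 58.5 and 129 CPM. The HO libraries of run B had 4.79 CPM in replicate 11 and 22.7, 39.5, 40.5 and 71.4 CPM in the 4 libraries that stood apart. In run C the 3 WT libraries had 27.2, 31.3 and 67.6 CPM and the 5 HO libraries 5.20, 5.54, 7.02, 10.6 and 13.5 CPM. HO and WT thus did not overlap in run C and overlapped in runs A and B.

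On the log2 scale the mean of Nckap1l was 3.93 ± 1.19 (SD) in HO and 5.14 ± 0.90 in WT libraries, 1.21 lower in HO by a two-sided permutation test with 100000 resamples (p = 0.00421, Benjamini-Hochberg adjusted 0.00593 over 9 tests). With labels permuted within sex the p was 0.00528 (adjusted 0.00594), and within number run it was 0.00161 (adjusted 0.00362). The difference was -1.36 without run B (permutation p = 0.00148) and -1.68 without the 4 libraries (permutation p = 0.0001). Within single runs the exact permutation test gave p = 0.131 in run A, 0.349 in run B and 0.0179 in run C, where 0.0179 is the smallest p that 5 against 3 libraries allow. In females alone (4 HO, 8 WT) the exact p was 0.0485, and in males alone (12 HO, 7 WT) 0.0631. All 4 libraries that stood apart are among these 12 HO males.

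**Figure D2:**
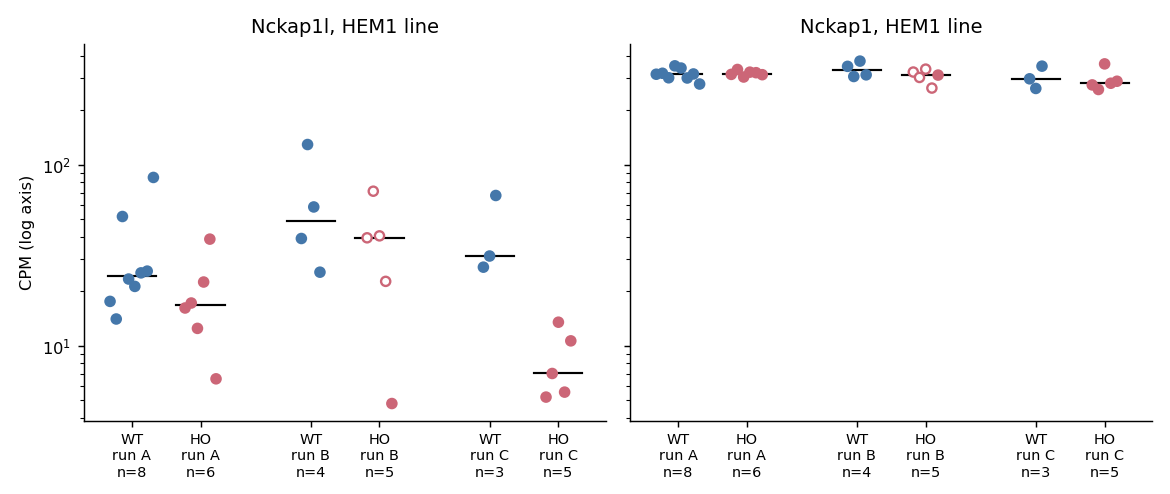
CPM (log axis) of Nckap1l on the left and Nckap1 on the right in each library of the HEM1 line, by genotype and number run. Each point is a library, black lines are medians, and open red points are the 4 libraries labelled HO that carry B cell markers. Nckap1l reaches down to 4.79 CPM in HO libraries, while Nckap1 stays between 261 and 374 CPM in all 31 libraries.

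Across all genes, the genotype effect in the HEM1 line was tested on the counts by edgeR's quasi-likelihood method in a fit that also held sex. None of the 17947 genes had an adjusted p under 0.05 (0% called), 807 had an unadjusted p under 0.05, and DESeq2 called 21 and limma-voom 0. None of the 10 members was called by edgeR, DESeq2 or limma-voom. 4 of the 10 had an unadjusted p under 0.05 by edgeR, all with lower values in HO (Nckap1l, Wasf1, Wasf3 and Cyfip2), against 2.35% of all genes tested with lower values in HO at that threshold. Nckap1l had a log2 fold change of -1.09 ± 0.41 (SE), a level of 0.471 times that of WT (95% CI 0.265 to 0.836), with an edgeR p of 0.0118 and an adjusted p of 1. The median log2 fold change was -0.11 over the 10 members and 0.01 over all genes tested. Without run B 2 genes were called, neither a member. Without the 4 libraries 33 of 18020 genes were called (0.183%), no member among them, and Nckap1l had a log2 fold change of -1.68 with an edgeR adjusted p of 0.0777.

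Nckap1, the paralog that could take the scaffold place, did not stand higher in HO. It lay between 264 and 374 CPM in WT libraries (median 317) and between 261 and 361 CPM in HO libraries (median 314), and the 2 groups overlapped over nearly their whole range. Its log2 fold change was -0.05 ± 0.05 (SE), and the 95% CI of its HO level ran from 0.895 to 1.04 times that of WT (edgeR p = 0.311, adjusted p = 1). Without run B the log2 fold change was -0.01 (edgeR p = 0.854) and without the 4 libraries -0.06 (p = 0.316). A rise within the blood-derived cells alone, where Nckap1l is used, could be hidden by the Nckap1 RNA of the other cells of the colon, and it was not tested. The balance of the 2 scaffolds, log2 Nckap1 minus log2 Nckap1l, was 4.33 ± 1.15 in HO and 3.17 ± 0.92 in WT libraries (SD), a difference of 1.16 (permutation p = 0.00461, adjusted 0.00593 over 9 tests). It was 1.34 without run B (permutation p = 0.00146) and 1.63 without the 4 libraries (permutation p = 0.00011). As Nckap1 itself had a log2 fold change of -0.05, this balance mainly restates the lower Nckap1l and is no separate sign of a higher Nckap1.

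Nckap1l followed the amount of leukocyte RNA in a library. Over the 160 libraries, each group centred on its own mean, its log2 CPM correlated with the mean log2 CPM of 10 pan-leukocyte genes (Ptprc, Cd53, Laptm5, Lcp1, Itgb2, Arhgdib, Cytip, Lcp2, Il10ra and Ikzf1) with a Pearson r of 0.96 and a Spearman rho of 0.95 (both permutation p = 1e-05, the smallest that 100000 permutations can give, adjusted 3.8e-05 over 19 relations). Without the 2 libraries farthest from the median leukocyte level r was 0.95. Within the 8 groups r ranged from 0.91 in HEM1 HO to 0.99 in DOCK2 WT. In HEM1 HO libraries the transcript thus still varied with leukocyte RNA, with a slope of 1.17 log2 units of Nckap1l for each log2 unit of the leukocyte mean, against 0.84 in HEM1 WT and between 0.83 and 0.91 in the groups of the other 3 lines. Without run B the HEM1 HO slope was 1.04 (11 libraries, r = 0.98) and without the 4 libraries 1.06 (12 libraries, r = 0.98). The difference between the slopes of the groups was not tested. In bulk tissue fewer leukocytes and less Nckap1l RNA per leukocyte cannot be told apart from Nckap1l alone.

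Nckap1l was also set against leukocyte RNA within each library. Log2 Nckap1l minus the pan-leukocyte mean was -0.67 ± 0.53 (SD) in HO and 0.28 ± 0.26 in WT libraries (permutation p = 1e-05, the smallest that 100000 permutations can give, adjusted 4.5e-05), a difference of -0.95. It was -1.26 without run B and -1.21 without the 4 libraries (both permutation p = 1e-05). In run A the WT libraries lay between -0.19 and 0.66 and the HO libraries between -1.11 and -0.53 (exact permutation p = 0.000333), and in run C between 0.34 and 0.49 against -1.19 and -0.83 (exact permutation p = 0.0179). In run B the WT libraries lay between -0.10 and 0.49 and the HO libraries between -1.06 and 0.50 (exact permutation p = 0.516). Replicate 11 was at -1.06 and the 4 libraries that stood apart were at -0.50, 0.11, 0.32 and 0.50. The ratio of Nckap1l to Ptprc, the pan-leukocyte phosphatase CD45, was 0.202 to 0.357 in the 12 other HO libraries, 0.229 to 0.541 in the 4 and 0.262 to 1.03 in WT libraries. The median ratio in the 6 groups of the other lines lay between 0.440 and 0.522.

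**Figure D3:**
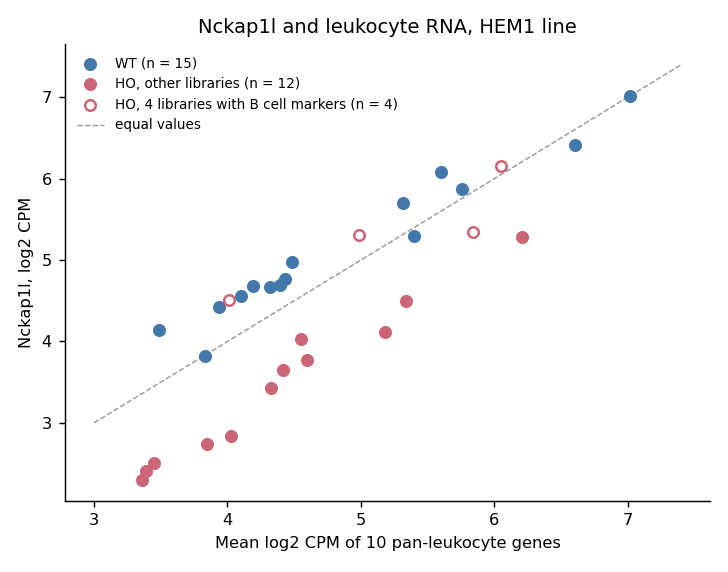
Log2 CPM of Nckap1l against the mean log2 CPM of the 10 pan-leukocyte genes in the 31 libraries of the HEM1 line. Each point is a library, blue for WT, red for HO and open red for the 4 libraries labelled HO with B cell markers, and the dashed line marks equal values. The 12 other HO libraries lie below the line, by 0.53 to 1.19 log2 units, while 3 of the 4 open points lie above it, as do 11 of the 15 WT libraries.

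With the pan-leukocyte mean as a further covariate in the edgeR fit, 26 of 17947 genes were called (0.145%), 22 higher and 4 lower in HO, and Nckap1l was the only member among them. Its log2 fold change was -0.92 ± 0.17 (SE), 0.529 times the WT level (95% CI 0.415 to 0.673, edgeR adjusted p = 0.0166). 4 of the 10 members had an unadjusted p under 0.05 with lower values in HO, against 3.08% of all genes tested. Without run B 82 of 17926 genes were called (0.457%), and Nckap1l fell to 0.415 times the WT level (log2 fold change -1.27, edgeR adjusted p = 1.68e-06). Without the 4 libraries 196 of 18020 were called (1.09%), and the log2 fold change of Nckap1l was -1.24 (edgeR adjusted p = 8.3e-09). Fitted by run, its log2 fold change was -1.15 in run A (edgeR adjusted p = 0.00797), -0.20 in run B (adjusted p = 1) and -1.49 in run C (adjusted p = 0.0169), and the difference of run B from runs A and C did not pass the threshold (1.13, edgeR p = 0.000272, adjusted p = 0.193). The call was lost in males alone (-0.69, edgeR adjusted p = 1), with Ptprc alone as the covariate (-0.80, adjusted p = 0.0509), with the epithelium and smooth muscle means added (-0.71, adjusted p = 0.17) and without HO replicate 5 (-0.89, adjusted p = 0.0559). The HO males include all 4 libraries that stood apart.

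Markers of the leukocyte classes did not all shift alike between HO and WT once the pan-leukocyte level was held equal. At equal pan-leukocyte level 5 of 6 tested B and plasma cell markers had an unadjusted edgeR p under 0.05 with lower values in HO, and 7 of 8 macrophage markers with higher values, of which C1qa was called (edgeR adjusted p = 0.0452), while 7.305% of all genes tested had such a p in either direction. Without run B the B cell genes Ms4a1 (log2 fold change -3.28, edgeR adjusted p = 0.0105) and Cd79b (-3.48, adjusted p = 0.00788) were called lower in HO, and C1qa (0.53, adjusted p = 0.032) higher. Run B holds the 4 HO libraries that were set apart by B cell markers, so this fit favours lower values of such genes in HO. In the fit with sex alone and all libraries neither B cell gene was called (Ms4a1 edgeR adjusted p = 0.84). There C1qa had a log2 fold change of 0.27 (edgeR p = 0.336), and the smallest macrophage marker p was 0.0947, at Mrc1. The higher macrophage values thus depended on the pan-leukocyte covariate. With the neutrophil, macrophage, T cell and B and plasma cell means as covariates in place of the pan-leukocyte mean, the log2 fold change of Nckap1l was -0.58 (edgeR p = 0.00467, adjusted p = 0.103). In that fit Nckap1 had a log2 fold change of -0.13 (p = 0.0438, adjusted p = 0.231), again without higher values in HO.

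At equal pan-leukocyte level Nckap1 again did not stand higher in HO, with 0.969 times the WT level (95% CI 0.901 to 1.04, edgeR p = 0.373, adjusted p = 0.977). Within the runs its log2 fold change was 0.00 in run A (edgeR p = 0.963), -0.11 in run B (p = 0.251) and -0.05 in run C (p = 0.655). Over the 160 libraries Nckap1 and Nckap1l rose together weakly, with a Pearson r of 0.20 (permutation p = 0.00822, adjusted 0.0174 over 19 relations) and a Spearman rho of 0.26 (p = 0.00091, adjusted 0.00192), and r was 0.28 without the 2 farthest libraries. Within HEM1 HO libraries r was 0.39 and within HEM1 WT libraries -0.05. The range over the 8 groups was -0.11 to 0.69, with 6 of 8 above 0.

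**Figure D4:**
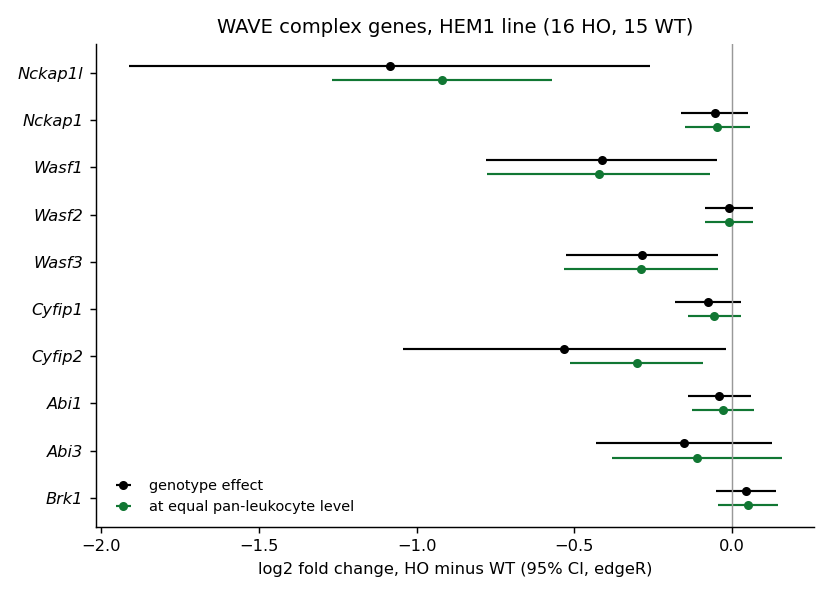
Log2 fold change of HO against WT for the 10 genes in the HEM1 line, with 95% CI, from the edgeR fit with sex alone (black) and with the pan-leukocyte mean added (green). The interval of Nckap1l at equal pan-leukocyte level runs from -1.27 to -0.57, and the intervals of Nckap1, Wasf2, Cyfip1, Abi1, Abi3 and Brk1 include 0 in both fits.

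Both Rac sensors followed leukocyte RNA over the 160 libraries, and whether they differed in this was not tested. Cyfip1, the broadly used form, lay between 189 and 254 CPM in WT (median 206) and between 162 and 247 CPM in HO libraries (median 205) of the HEM1 line, and the HO level was 0.948 times that of WT (95% CI 0.882 to 1.02, edgeR p = 0.145, adjusted p = 1). Cyfip2, known from brain and lymphocytes, lay between 12.4 and 81.0 CPM in WT (median 22.4) and between 10.6 and 36.7 CPM in HO libraries (median 17.4), with overlapping groups. Its log2 fold change was -0.53 ± 0.25 (SE, edgeR p = 0.0422, adjusted p = 1) and -0.30 ± 0.10 at equal pan-leukocyte level (p = 0.00681, adjusted p = 0.356). The highest WT value belonged to replicate 8, whose mean log2 CPM over the B and plasma cell markers was 5.65, the highest of the line. Over the 160 libraries Cyfip2 correlated with the pan-leukocyte mean (r = 0.78, rho = 0.67, both permutation p = 1e-05, adjusted 3.8e-05), as did Cyfip1 (r = 0.63, rho = 0.59, same p). Without the 2 farthest libraries r was 0.75 for Cyfip2 and 0.58 for Cyfip1, and r was above 0 in 8 of 8 groups for both. Cyfip2 also correlated with the B and plasma cell mean (r = 0.51, rho = 0.59, permutation p = 1e-05, adjusted 3.75e-05 and 3e-05 over 30 relations added after the data were seen, r = 0.50 without the 2 farthest), whereas Cyfip1 did not pass (r = 0.09, permutation p = 0.288). With the 4 leukocyte class means as covariates the log2 fold change of Cyfip2 was -0.11 (edgeR p = 0.429).

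Among the activators, Wasf2 carried the bulk of the RNA. It lay between 225 and 269 CPM in WT (median 247) and between 219 and 279 CPM in HO libraries (median 249), 0.994 times the WT level in HO (95% CI 0.942 to 1.05, edgeR p = 0.806, adjusted p = 1). Wasf1, best known from brain, lay between 1.52 and 5.30 CPM in WT (median 3.38) and between 1.48 and 3.43 CPM in HO libraries (median 2.36). Wasf3 lay between 3.50 and 7.06 CPM in WT (median 5.51) and between 2.15 and 5.61 CPM in HO libraries (median 4.204). Both had lower values in HO without passing the test, with log2 fold changes of -0.41 ± 0.18 (SE) for Wasf1 (edgeR p = 0.0281, adjusted p = 1) and -0.29 ± 0.12 for Wasf3 (p = 0.0215, adjusted p = 1). In Wasf1 the higher WT values came mainly from run A, where 7 of 8 WT libraries lay between 3.38 and 5.30 CPM and replicate 8 at 1.72 CPM, against 2.30 to 3.43 CPM in the 6 HO libraries. Without run B the log2 fold change of Wasf1 was -0.66 (edgeR p = 0.00243, adjusted p = 0.382).

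Wasf1 and Wasf3 followed smooth muscle RNA rather than leukocyte RNA. Over the 160 libraries r with the mean of 8 smooth muscle markers was 0.68 for Wasf1 (rho = 0.62) and 0.72 for Wasf3 (rho = 0.60), all with permutation p = 1e-05 (adjusted 3.75e-05 for r), above 0 in 8 of 8 groups for both and 0.64 and 0.67 without the 2 farthest libraries. With the pan-leukocyte mean neither passed, with r = -0.03 for Wasf1 (permutation p = 0.729) and -0.08 for Wasf3 (p = 0.321). The smooth muscle markers themselves had lower values in the HO libraries of the HEM1 line: 6 of 8 had an unadjusted edgeR p under 0.05 and none was called, and their summed CPM lay between 3378 and 12480 in WT (median 8292) and between 2604 and 9617 in HO libraries (median 5508). With the epithelium and smooth muscle means beside the pan-leukocyte mean in the fit, the log2 fold change was -0.10 for Wasf1 (edgeR p = 0.492) and -0.19 for Wasf3 (p = 0.177). With the 4 leukocyte class means as covariates it was -0.74 for Wasf1 (edgeR p = 0.00159, adjusted p = 0.0752) and -0.45 for Wasf3 (p = 0.00375, adjusted p = 0.0963), so the size of both depended on which cell types entered the fit. The part of smooth muscle RNA in these differences was not tested.

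The adaptors and Brk1 did not pass the test. Abi1 lay between 170 and 227 CPM in WT (median 192) and between 168 and 220 CPM in HO libraries (median 188), 0.973 times the WT level in HO (95% CI 0.908 to 1.04, edgeR p = 0.426, adjusted p = 1). Abi3, the adaptor known from blood-derived cells, lay between 1.73 and 4.85 CPM in WT (median 2.80) and between 1.84 and 4.14 CPM in HO libraries (median 2.76), 0.900 times the WT level (95% CI 0.741 to 1.09, edgeR p = 0.277, adjusted p = 1). Its relation with the pan-leukocyte mean was weak (r = 0.19, permutation p = 0.0226, adjusted 0.0391, rho = 0.07, p = 0.367, adjusted 0.456) and fell to r = 0.11 without the 2 farthest libraries, so it rested on them. Brk1 lay between 48.1 and 57.4 CPM in WT (median 55.1) and between 48.9 and 74.8 CPM in HO libraries (median 54.8), 1.03 times the WT level (95% CI 0.966 to 1.10, edgeR p = 0.337, adjusted p = 1), and was the only member with a positive log2 fold change. Abi2, the further adaptor outside the list of 10, lay between 41.7 and 72.3 CPM in WT and between 37.5 and 67.4 CPM in HO libraries, 0.903 times the WT level (95% CI 0.796 to 1.02, edgeR p = 0.109, adjusted p = 1).

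**Figure D5:**
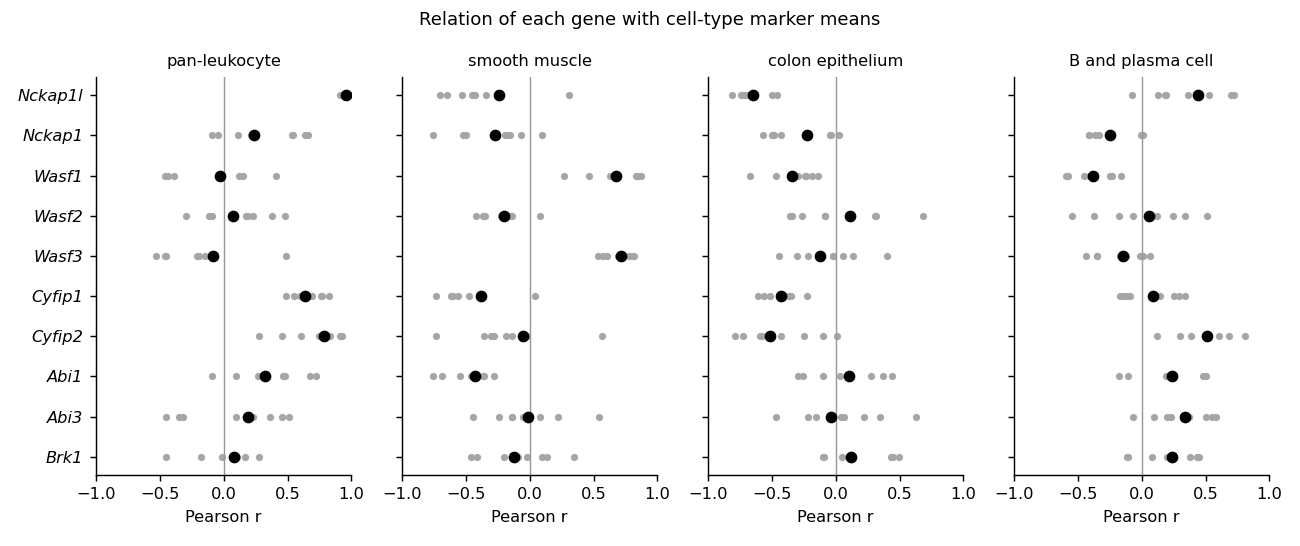
Pearson r of each gene's log2 CPM with the marker means of leukocytes, smooth muscle, colon epithelium, and B and plasma cells. Black points use all 160 libraries with each group centred on its mean, and grey points are the 8 single groups. Nckap1l lies at 0.96 with leukocytes and at -0.64 with colon epithelium, and Cyfip2 and Cyfip1 at 0.78 and 0.63 with leukocytes. Wasf1 and Wasf3 lie at 0.68 and 0.72 with smooth muscle, and Abi1 at -0.43.

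The genes whose log2 CPM was most like that of Nckap1l over the 160 group-centred libraries were Arhgap30 (r = 0.96), Coro1a (0.95), Inpp5d (0.94), Hcls1 (0.94) and Laptm5 (0.94), given as a description. Coro1a encodes the leukocyte actin regulator coronin 1A, Inpp5d the phosphatase SHIP1, Hcls1 a leukocyte cortactin relative and Laptm5 a lysosomal protein of leukocytes that is also in the pan-leukocyte list. For Nckap1 they were Hprt (r = 0.82), Itga6 (0.80), S100a16 (0.80), Gm4202 (0.79) and S100a10 (0.79), among which Itga6 encodes an integrin of epithelial cells and S100a10 an annexin partner. Nckap1 itself did not rise with the colon epithelium mean (r = -0.22, permutation p = 0.00532, adjusted 0.00939 over 30 relations). With the pan-leukocyte mean its r was 0.24 (permutation p = 0.00252, adjusted 0.00598 over 19 relations). Chosen after their values were seen, 2 further pairings stood out. The genes most like Cyfip1 were Actr2 (r = 0.88) and Actr3 (0.88), the Arp2 and Arp3 subunits that the complex acts on, and the gene most like Abi3 was Gngt2 (0.61), whose exons overlap Abi3 on the opposite strand.

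In the other 3 lines no member was called by edgeR, DESeq2 or limma-voom. In the DOCK2 line 6 of 17648 genes were called (0.034%), in the GPSM3 line 1 of 17560 (0.00569%) and in the Dok3 line 0 of 17612 (0%) by edgeR, where the Dok3 line had 386 genes at an unadjusted p under 0.05, 3 called by DESeq2 and 0 by limma-voom. At equal pan-leukocyte level the counts were 54 (0.306%), 1 (0.00569%) and 0 (0%, with 550 at an unadjusted p under 0.05), again without a member. Nckap1l lay between 19.7 and 90.2 CPM in DOCK2 WT (median 33.7) and between 20.7 and 64.1 in DOCK2 HO (median 31.7), between 18.5 and 51.5 in GPSM3 WT (median 28.3) and between 7.96 and 100 in GPSM3 HO (median 30.2), and between 17.6 and 137 in Dok3 WT (median 33.1) and between 10.9 and 253 in Dok3 HO (median 34.5). Ordered by mean CPM, the 8 groups ran from Dok3 HO (48.1 ± 46.1, SD) over Dok3 WT, HEM1 WT, GPSM3 HO, DOCK2 WT, DOCK2 HO and GPSM3 WT to HEM1 HO (20.9 ± 18.3), and no 2 neighbours differed by more than the larger of their SDs. Nckap1 had group medians between 281 and 317 CPM in all 8 groups. The log2 fold change of Nckap1l was -0.12 in the DOCK2 line (edgeR p = 0.406), 0.43 in the GPSM3 line (p = 0.0382, adjusted p = 0.936) and 0.09 in the Dok3 line (p = 0.718). Cyfip2 had -0.25 in the DOCK2 line (p = 0.00703, adjusted p = 0.63), 0.29 in the GPSM3 line (p = 0.0292, adjusted p = 0.936) and 0.00 in the Dok3 line (p = 0.999). At equal pan-leukocyte level the log2 fold change of Nckap1l was 0.06, 0.03 and 0.04 with edgeR p between 0.0665 and 0.596.

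Whether the HEM1 line differed from the others was tested in 1 edgeR fit over all 160 libraries, as the HO effect in the HEM1 line minus the mean HO effect of the other 3 lines. For each gene this fit held a shared spread between libraries and, where used, a shared leukocyte slope across all groups. Its SEs and p-values for the HEM1 line therefore rest partly on the other lines. Those lines also differed from it in day and DSS dose, and the Dok3 line in strain. 31 of 19849 genes were called (0.156%), and no member was. Nckap1l had a difference of -1.24 ± 0.32 log2 units (SE, edgeR adjusted p = 0.0717). With the pan-leukocyte mean as a covariate 71 genes were called (0.358%), and Nckap1l was the only member among them, with a difference of -0.95 ± 0.09 log2 units (edgeR adjusted p = 2.56e-14). Without run B the difference of Nckap1l was -1.43 (edgeR adjusted p = 0.0112), and without the 4 libraries -1.82 (adjusted p = 5.52e-05). For Nckap1 the difference was -0.08 ± 0.06 log2 units (95% CI -0.20 to 0.04, edgeR p = 0.216) and -0.06 ± 0.06 with the covariate (95% CI -0.18 to 0.05, p = 0.278).

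In the neighbouring parts of the pathway no gene was called in the HEM1 line with all libraries in the fit, where 4.497% of all genes tested had an unadjusted edgeR p under 0.05. Of 19 genes of small GTPases (Rac, Rhog, Cdc42 and Arf1), exchange factors and Elmo proteins none was called. Among them 1 with higher and 2 with lower values in HO had an unadjusted edgeR p under 0.05. Rac3, a Rac GTPase, lay between 3.55 and 8.70 CPM in WT and between 4.92 and 8.68 CPM in HO libraries (log2 fold change 0.30 ± 0.11, SE, edgeR p = 0.0127, adjusted p = 1). Dock8, an exchange factor of leukocytes, lay between 42.6 and 103 CPM in WT and between 33.9 and 74.9 CPM in HO libraries (-0.34 ± 0.13, p = 0.0166, adjusted p = 1). At equal pan-leukocyte level the log2 fold change of Dock8 was -0.26 ± 0.07 (SE, edgeR p = 0.00106, adjusted p = 0.189), and it was called without run B (-0.38, adjusted p = 0.0275) and without the 4 libraries (-0.34, adjusted p = 0.0113). Coro1a was also called without the 4 libraries at equal pan-leukocyte level (-0.37, edgeR adjusted p = 0.00851), against an adjusted p of 0.413 with all libraries. Of all genes tested at equal pan-leukocyte level, 0.457% were called without run B and 1.09% without the 4 libraries. Both fits leave out the HO libraries that were set apart by B cell markers. Of the 10 Arp2/3 complex genes none was called or had an unadjusted p under 0.05, and their 2 smallest p-values were 0.0672 for Arpc1a (0.07 ± 0.04) and 0.132 for Arpc5l (-0.09 ± 0.06). Of 9 other Arp2/3 activators none was called, with the smallest p at Wasl, the N-WASP gene (-0.14 ± 0.07, p = 0.0552), and at Was, its blood-cell relative (-0.40 ± 0.36, p = 0.275). Of 12 Arp2/3 inhibitors and actin turnover genes none was called, and 2 had an unadjusted p under 0.05 with lower values in HO (2.35% of all genes tested), Coro1c (-0.15 ± 0.06, p = 0.0143) and Capza2 (-0.14 ± 0.06, p = 0.0323). Of 4 genes of mTORC2, a kinase complex linked to Hem1, none was called, with the smallest p at Mlst8 (0.09 ± 0.08, p = 0.222) and Rictor (0.05 ± 0.05, p = 0.356). All p-values of this paragraph are from edgeR, with an adjusted p of 1 in the fit with sex alone.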

How the data were processed

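RNA of the distal 2 cm of colon was ribosome-depleted and sequenced on 160 libraries as single-end reads of 100 bases. The submitters' processing notes name STAR, featureCounts, Subread and mm10, with versions not given in the sources used here, and the authors deposited raw, unnormalized counts of 39179 Ensembl genes per library. Symbols, positions and union exon lengths were taken from GENCODE release M21 (GRCm38), which named 96.2% of the genes and 99.67% of the counts.

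Counts were normalized by TMM, filtered by filterByExpr and tested within each line by the edgeR 4.0.16 quasi-likelihood test in R 4.3.3, adding sex as a term for the HEM1 and DOCK2 lines, with Benjamini-Hochberg adjustment over all genes tested (threshold 0.05). A second fit added the mean log2 CPM of the pan-leukocyte list, and a further fit tested the HEM1 effect against the other lines. Alternatives used limma-voom 3.58.1 (the study's method), DESeq2 1.42.0 and sva 3.50.0. Log2 CPM carried a prior count of 2. Per-kb levels are CPM divided by union exon length. Permutation tests used 100000 resamples, or all arrangements where a group held under 10 libraries. Scripts were tested on simulated data. The lowest mean squared standardized difference between any 2 libraries of a group was 3.74 where sampling noise alone gives about 1, so no library was counted as a copy.

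Depth was 4344988 to 19993833 counts per library. The CIs are from the edgeR quasi-likelihood fits and include the spread between libraries. The members, gene lists and tests were chosen with earlier results of these data known. Named genes were all members, the 2 genes of each other pathway list with the smallest p in the HEM1 line, and the 5 genes most like Nckap1l and Nckap1 (average log2 CPM of at least 1).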

Additional observations from a re-analysis of the deposited data

Results flagged for a closer look

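In the HEM1 line 77 groups of 4 to 10 libraries were searched for a library far from the others, and chance alone marks about 1 in 20 such groups. WT replicate 8, a female of run A, stood apart in several members. Among the 8 WT libraries of run A it had the lowest log2 CPM of Wasf1 (0.89, group median 2.16) and of Wasf3 (1.86, median 2.50) and the highest of Cyfip2 (6.34, median 4.24). Among the 8 WT females it was highest for Cyfip2 (6.34, median 4.66) and lowest for log2 Nckap1l minus the pan-leukocyte mean (-0.19, median 0.42). These groups overlap, with 6 of the WT females in run A, so the 2 marks for Cyfip2 are not separate. The same library had the highest B and plasma cell mean of the line (5.65 on the log2 CPM scale) and lacked the skin RNA of the other libraries of its run. Abi3 was highest in WT replicate 10 of run B (2.32, median 1.45, 4 libraries), Abi1 in WT replicate 15 among the females (7.82, median 7.53) and Brk1 in HO replicate 2 of run A (5.97, median 5.72, 6 libraries).

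The HO effect on Nckap1l differed between the HEM1 line and the mean of the other 3 lines by -0.95 ± 0.09 log2 units (SE) with the pan-leukocyte mean as a covariate (edgeR adjusted p = 2.56e-14 over 19849 genes). This SE and p rest on a spread and a leukocyte slope shared by all groups. Within the HEM1 line, log2 Nckap1l minus the pan-leukocyte mean had an SD of 0.53 in HO and 0.26 in WT libraries.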

How the results depend on the processing

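Under the alternatives 159 values that answer a comparison and 220 single-gene values kept their direction and side of the threshold. None of the 8 that changed direction passed it. Relations between a member and a cell type mean that had passed kept their sign with another centring and without the 4 libraries. Some that had not passed changed sign with another centring (Wasf2 with the B and plasma cell mean from 0.06 to -0.04). Without the 2 farthest libraries the relation of Abi3 with the pan-leukocyte mean fell to r = 0.11. There too some that had not passed changed sign (Brk1 with the pan-leukocyte mean from 0.08 to -0.02, Abi3 with the epithelium mean from -0.03 to 0.09). For the unadjusted HEM1 effect, genes called were 21 by DESeq2, 27 with no filter, 98 with 2 surrogate variables, 2 without run B and 33 without the 4 libraries, against 0. With 2 surrogate variables 1 member, Nckap1l, was called (-0.95, edgeR adjusted p = 0.0436). At equal pan-leukocyte level, against 26, genes called were 7 by limma-voom, 126 by DESeq2, 0 with epithelium and smooth muscle means, 40 with number run, 0 in males, 82 without run B, 196 without the 4 libraries, 82 with skin and striated muscle means and 172 with 4 leukocyte class means. Members called were 0, with Nckap1l at -0.80 (Ptprc alone, edgeR adjusted p = 0.0509), -0.71 (epithelium and smooth muscle, 0.17), -0.69 (males, 1) and -0.58 (4 classes, 0.103). Permutation tests did not pass for the Nckap1l level and the scaffold balance in males (-1.10 and 1.01), run A (-0.75 and 0.77) and run B (-0.99 and 0.87), nor for Nckap1l minus the pan-leukocyte mean in run B (-0.25). The males and run B both hold all 4 libraries that stood apart. Genes called in the DOCK2 line were 69 by DESeq2, 0 by limma-voom, 31 with no filter, 68 with 2 surrogate variables and 1 in males, in the GPSM3 line 4 by DESeq2 and 32 with no filter, and in the Dok3 line 3 and 15. For the HEM1 line against the others, 71 genes and 1 member were called with the pan-leukocyte mean (Nckap1l -0.95), 164 and 1 without run B (-1.43), 236 and 1 without the 4 libraries (-1.82), and 0 genes by limma-voom. Among the values compared here, direction changed for Wasf2 (0.00137 without sex, 0.00979 with 4 classes), Abi1 (0.0216 and, at equal pan-leukocyte level, 0.0188 without run B, 0.00863 with epithelium and smooth muscle, 0.0230 with 4 classes), Abi3 (0.00735 with 4 classes) and Nckap1l in the Dok3 line (-0.0331 by limma-voom). Further members changed sign in the Dok3 line, where 7 had a negative log2 fold change by edgeR and 4 by DESeq2. The cause of these changes was not tested. Leaving out 1 library at a time, Nckap1l ranged from -1.31 to -0.75 unadjusted (0 of 31 called, 0 genes in each fit), and from -1.01 to -0.87 at equal pan-leukocyte level. There it was called in 30 of 31 fits, members called were 0 to 1, and genes called ranged from 6 without HO replicate 5 to 46 without HO replicate 10. Further single libraries that moved this count by over 1.5 times were, by replicate, 7 without WT 2, 13 without WT 6 or 12, 14 without WT 1 or 13, 15 without HO 4 or 12 or 16 or WT 4 or 5 or 7 or 14 or 15, 17 without HO 2 or WT 9. The fits without libraries whose sex markers go against the label left out no HEM1 library, so they gave no value there. No paired analysis was possible because each library has its own number in the labels and HO and WT share none. Treatment was not known per library, so its share of the spread cannot be told apart from that of genotype, and 3 counts equalled up to 0.198 CPM in the HEM1 line, where Wasf1 reached down to 1.48 CPM and Abi3 to 1.73 CPM.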
